A study of Homo sapiens with 4 samples.

Results

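Synthetic RNAs copied from the loci of 3 human transcripts, SON, DICER1 and TUG1, were measured in an assay of m6A writing on a designed pool. Members were the oligonucleotides whose table coordinate lay in SON (chromosome 21, plus strand), DICER1 (chromosome 14, minus strand) or TUG1 (chromosome 22, plus strand) on GRCh38, in any design class. They numbered 30 of 11999 oligonucleotides and held 10 of 3949 distinct sequences: 5 from SON, 3 from DICER1 and 2 from TUG1, each made as 3 copies that differ only in their tag. Within these sequences lay 37 DRACN adenosines of 14719 in the table, 18 in SON, 10 in DICER1 and 9 in TUG1 (D is A, G or T, R is A or G, N is any base; sequences are given in the DNA letters of the table, where T stands for U of the RNA).

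The RNAs were human sequence made by in vitro transcription, so that no cell, and no other factor of a cell, was present. One group of 2 libraries came from RNA incubated with the recombinant METTL3–METTL14 complex (methylated), and the other group of 2 from RNA incubated without it (unmethylated). An m6A-specific antibody was crosslinked to the RNA, and reverse transcription that stopped at the crosslink marked the nucleotide. The table gives counts of such stops at each of 141 positions, and in the members the adenosine for which a sequence was selected is at position 51. The sequences fall into a class selected for m6A in HEK293T, a human embryonic kidney line (7 of the 10), and one selected for DRACN adenosines without detected m6A there (3 of the 10).

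METTL3–METTL14 is the complex that places most m6A in messenger RNA, with METTL3 as the catalytic subunit and METTL14 as its RNA-binding partner, and it acts within the DRACH consensus (DRACN without a final G). SON encodes a large protein of nuclear speckles that is needed for splicing of weak introns and whose coding sequence contains long arrays of short tandem repeats. DICER1 encodes the ribonuclease that cuts precursor hairpins into microRNAs. TUG1 is known as a long noncoding RNA, although the RefSeq annotation used here lists its gene as protein-coding.

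The SON sequences around positions 33551486 and 33551606 came from such a repeat array, with 8 GGACT motifs spaced exactly 30 nt apart. They are shown because each repeat unit presents nearly the same 30 nt to the enzyme, so that the response can be read across copies of one motif. Capitals mark the DRACN motif, each line is named by the position of its adenosine on chromosome 21, and the units run from chr21:33551442-33551471 to chr21:33551652-33551681.
SON 33551456: gtccaacaccatGGACTcccagatgctagc
SON 33551486: atccaacaccatGGACTcccagatgttagc
SON 33551516: gtctagcaccatGGACTcccagatgttagc
SON 33551546: aactagctccatGGACTcccagatgttagc
SON 33551576: aactagctccatGGACTcccagatgttagc
SON 33551606: aactagcactatGGACTcccagatgttagc
SON 33551636: aaccagttccatGGACTcccagatgttagc
SON 33551666: aaccagctccatGGACTcccagatgttagc
Pairs of units had 24 to 30 of 30 bases in common, and the units at 33551546 and 33551576 were identical. The upper 4 units lay at positions 21, 51, 81 and 111 of one synthetic RNA and the lower 4 at the same positions of the other. In the whole table, 5 of 3949 sequences held at least 4 GGACT motifs, and these were 2 of them.

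The other adenosines that carried the response are shown with their flanks, again with the motif in capitals.
SON 33543056, GAACG at position 74: aggagttgagaGAACGgagcggacgcc
DICER1 95103599, GGACT at position 119: gtactcctcaaGGACTcttggccccaa
DICER1 95103531, GGACT at position 71: gccccaatcctGGACTtattcttcagg
DICER1 95103531, TAACC at position 118: agtgatggattTAACCtggagcggctt
DICER1 95096073, AGACT at position 111: tctgtattgaaAGACTcggaatatggt
TUG1 30971641, AGACC at position 128: tgggaattagaAGACCtgagtttctgt
Each is named by the genomic position of the selected adenosine of its sequence, followed by its own position in the synthetic RNA. Coordinates of adenosines other than the selected ones assume that the sequence is contiguous in the genome, and are given only for pairs of overlapping sequences. The overlap bears this out only between the 2 selected positions of a pair. In SON it does so only weakly, since the 21 shared nt lie within the repeat, where another unit can match them. Outside the interval between the selected positions the coordinates are assumed. This holds for 33551456, 33551636 and 33551666 in SON, for 95103511 in DICER1 and for the stretches around them. By RefSeq gene spans of GRCh38.p14 all 10 selected positions lay in SON, DICER1 or TUG1 and in no other gene; exon and UTR annotation was not used here.

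Library totals ran from 10483825 to 13265092 counts, of which the 10 sequences held 11391 to 17820. A site, 1 position of 1 sequence summed over its tag copies, was tested where at least 10 counts were present in at least 2 of the 4 libraries, with the quasi-likelihood F test of edgeR, and p-values were adjusted over all sites (Benjamini-Hochberg, threshold 0.05). Methylation raised 5282 of 142938 tested sites of the table (3.7%) and lowered 2873 (2.01%), so that rises made up 64.8% of calls. Relative to the summed counts of each sequence the numbers were 2575 and 577, and the share of rises was 81.7%.

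The groups were first compared at all 37 DRACN adenosines, without a count filter. In 22 of the 37, both methylated libraries lay above both unmethylated ones in CPM (counts scaled to the library total); this was so for 35.2% of all 14719 DRACN adenosines of the table. These counts include adenosines with as little as 1 count in a methylated library. In none of the 37 did both lie below, against 3.76% of the table, and 2 of the 37 had no count in any library. By gene, the 22 divided into 12 of 18 in SON, 7 of 10 in DICER1 and 3 of 9 in TUG1.

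Only 10 of the 37 adenosines passed the count filter, 5 in SON, 4 in DICER1 and 1 in TUG1. Of these, 9 passed through methylated libraries alone, with under 10 counts in each unmethylated library, so that a low unmethylated count was built into their choice and their number is no evidence in itself. Of the 10, 9 were higher and 0 lower, with log2 fold changes from 3.27 to 5.99; 39.3% of the tested DRACN adenosines of the table were higher and 0.28% lower. At an unadjusted p under 0.05 there were likewise 0 falls by edgeR, and DESeq2 called 0 lower and 7 higher, with no adjusted p for the other 3.

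In the SON repeat array, a large rise lay at the selected GGACT at 33551606. It had 3 and 0 counts without the enzyme and 108 and 138 with it. That is 0.143 ± 0.202 CPM against 9.32 ± 1.53 CPM (SD, n = 2 each), with a log2 fold change of 5.99 ± 0.59 SE (edgeR adjusted p = 3.21e-07). The ratio of CPM was 69.99 with a 95% counting interval of 23.7 to 342, which covers counting error only, as do all intervals given here. The groups lay far apart, and the width of the interval comes from the 3 unmethylated counts; without unmethylated replicate 2 the log2 fold change was 4.98. Without unmethylated replicate 1 no unmethylated count was left and the fitted value has no bound.

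The 2 repeats downstream of it in the same RNA rose too. The GGACT at 33551636 (position 81) had 2 and 2 unmethylated counts and 49 and 41 methylated ones, a log2 fold change of 4.16 ± 0.61 SE (edgeR adjusted p = 7.75e-05). At 33551666 (position 111) the counts were 3 and 4 against 70 and 122, and the log2 fold change was 4.47 ± 0.50 SE (edgeR adjusted p = 2.53e-06). All 3 adenosines were therefore more than an order of magnitude above their unmethylated level in both libraries. The fourth repeat of this RNA, the GGACT at 33551576 (position 21), had 0 and 0 counts before and 3 and 1 after methylation, too few to test; a count of 0 allows up to 3 counts, which is 0.249 to 0.286 CPM in the unmethylated libraries.

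The upstream RNA of the array, selected at 33551486, had fewer counts in the same libraries, with 178 and 213 before and 314 and 495 after methylation over all positions. None of its repeats passed the filter. Its selected GGACT (position 51) had 0 and 0 against 1 and 1 counts, and the repeat at position 21 had the same values. The repeat at position 81 had 1 and 1 against 4 and 16 counts, and that at position 111 had 2 and 1 against 9 and 24. The ratios of the latter pair were 8.54 (95% counting interval 2.07 to 75.3) and 9.39 (2.95 to 47.9). Positions 21 and 51, at 1 count in each methylated library, lay under the 3 counts that a count of 0 allows, so that no direction can be given for them. With all sites of at least 1 count tested, the repeat at position 111 was called (log2 fold change 3.09 ± 0.83 SE, edgeR adjusted p = 0.0153). That fit called 10 of the 37 adenosines higher and 0 lower, beside 15.5% and 0.134% of all DRACN adenosines with a count.

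Set against the counts of their own RNA, the repeats formed no even series. In the methylated libraries the repeats at positions 21, 51, 81 and 111 took 0.815 ± 0.687, 46.1 ± 0.982, 17.4 ± 5.48 and 35.3 ± 6.94 of every 1000 counts of the downstream RNA (SD, n = 2 each). In the upstream RNA they took 2.60 ± 0.823, 2.60 ± 0.823, 22.5 ± 13.8 and 38.6 ± 14 per 1000. The repeat at position 21 was the lowest in the downstream RNA, and positions 21 and 51 were lowest in the upstream one, while position 111 was high in both. In each methylated library the order was position 51, then 111, then 81 in the downstream RNA, and position 111 lay above position 81 in the upstream RNA. The 2 identical units gave 38.6 ± 14 per 1000 at position 111 of one RNA and 0.815 ± 0.687 per 1000 at position 21 of the other. Reads that start in 1 unit of such an array can resemble those of another, and how the alignment treated them is not given in the sources used here.

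Over the whole table, passing the count filter also varied with position in the synthetic RNA. Of all GGACT adenosines, 19.9% passed the count filter at positions 1 to 30, 32% at 31 to 60, 44.6% at 61 to 90, 63.1% at 91 to 120 and 35.6% at 121 to 141. Among those tested, 44.1%, 57.9%, 61.4%, 59.4% and 64.5% were higher. For all tested DRACN adenosines the shares that were higher varied less, at 36.2%, 40.8%, 39.3%, 37.3% and 41.2%. Summed, the 10 sequences had 59.96% ± 2.29 of their unmethylated counts at positions 91 to 120 against 34% ± 0.333 in the whole table (SD, n = 2 each). This sum was led by the DICER1 RNAs selected at 95103531 (85.1%) and 95096073 (79.5%), whereas both TUG1 RNAs (29.8% and 35.2%) and the SON RNAs selected at 33552198 (26.3%) and 33553945 (35%) lay near or below the table's share. The part of position in the values above was not tested.

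The remaining 3 SON sequences were those selected for adenosines without detected m6A in the cell line. Of these, the sequence at 33543056 begins upstream of the annotated gene start if it is contiguous in the genome. In the sequence at 33543056, close to the start of the gene at 33543038, the selected GGACT had 8 and 2 against 12 and 11 counts and was not called (log2 fold change 0.91 ± 0.73 SE, edgeR adjusted p = 0.561; 2.27 without unmethylated replicate 1 and 0.19 without unmethylated replicate 2). A GAACG at position 74 of the same RNA, outside DRACH because of its final G, rose from 2 and 0 to 40 and 26 counts (log2 fold change 4.64 ± 0.79 SE, edgeR adjusted p = 4.87e-04; 3.65 without unmethylated replicate 2). A GGACG at position 83 had 2 and 4 against 5 and 8 counts and was not tested. Within this RNA, the adenosine that had been selected was thus not the one with the large difference. Of 67 GAACG adenosines tested over all sequences, 34.3% were higher, with a median log2 fold change of 1.07.

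The RNAs at 33552198 and 33553945 held too few counts to test any of their 7 DRACN adenosines. At 33552198 the selected AGACC had 2 and 0 counts before methylation and none after, and an AGACG had none in any library. A GAACG at position 102 had none before and 3 and 4 after, and another at position 126 had 3 counts in methylated replicate 2 alone. At 33553945 the selected AGACT had 4 counts, all in methylated replicate 2, while an AAACA had 1 and an AAACT had 0 and 3 against 1 and 3. These RNAs had 33 to 90 and 252 to 429 counts per library over all positions. Their part in the low counts at DRACN adenosines was not tested.

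In DICER1, one adenosine was present in 2 synthetic RNAs at different positions. The RNAs selected at 95103599 and 95103531 shared 71 nt, so that the GGACT at 95103531 (chr14:95103518-95103544 for the stretch shown) stood at position 119 of the former and was the selected adenosine, at position 51, of the latter. At position 119 the counts were 1 and 4 without the enzyme and 157 and 168 with it, or 0.214 ± 0.168 and 12.3 ± 0.488 CPM (SD, n = 2 each). The log2 fold change was 5.70 ± 0.49 SE (edgeR adjusted p = 4.74e-08; 5.11 without unmethylated replicate 1 and 6.87 without unmethylated replicate 2). Together with the SON adenosine at 33551606 it had the largest fold changes of the 10 tested, and their order turned without unmethylated replicate 2. At position 51 the counts were 2 and 0 against 6 and 11, higher in both methylated libraries but too low to test, with a ratio of 7.25 (95% counting interval 1.72 to 64.7).

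As a share of the RNA that carried it, the same adenosine took 22.2% (95% Wilson interval 19.3 to 25.4) and 18.8% (16.3 to 21.5) of methylated counts at position 119. At position 51 it took 0.143% (0.0655 to 0.312) and 0.350% (0.196 to 0.626). The shares at position 119 exceeded those at position 51 in both methylated libraries and also in the unmethylated ones, where they were 0.424% and 2.21% at position 119 and 0.0508% and 0% at position 51. The shared 71 nt as a whole held 658 and 824 of the methylated counts of the RNA selected at 95103599, which totalled 708 and 895, and 335 and 306 of the 4197 and 3140 of the other. The order was turned for the next GGACT, 20 nt downstream at 95103511, which lay at position 71 of one RNA and at position 139, near the end, of the other. There it took 0.548% (0.365 to 0.821) and 0.478% (0.290 to 0.787) of methylated counts at position 71, and 0.141% (0.0249 to 0.796) and 0.223% (0.0613 to 0.811) at position 139, with overlapping intervals.

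The RNA selected at 95103531 carried called adenosines at other positions. Its GGACT at position 71 rose from 1 and 0 to 23 and 15 counts (log2 fold change 4.71 ± 0.98 SE, edgeR adjusted p = 0.00373). Its TAACC at position 118 rose from 5 and 8 to 109 and 100 counts, which is 0.571 ± 0.133 CPM against 7.93 ± 0.548 CPM (SD, n = 2 per group). Its log2 fold change was 3.73 ± 0.43 SE (edgeR adjusted p = 3.69e-06). The TAACC thus had the largest count of this RNA's DRACN adenosines although the motif is not a GGAC; of 33 TAACC adenosines tested over all sequences, 33.3% were higher, with a median log2 fold change of 1.20. A TGACT at position 90 (2 and 1 against 7 and 4 counts) and an AAACG at position 100 (1 and 5 against 5 and 7) were not tested. The call of the GGACT at position 71 depended on methylated replicate 1, without which it had a log2 fold change of 4.31 (edgeR adjusted p = 0.131); without unmethylated replicate 2 it was 3.79.

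The third DICER1 RNA, selected at 95096073, showed the same arrangement. Its selected GAACC had 2 and 1 against 0 and 8 counts, with overlapping groups. An AGACT at position 111 rose from 1 and 0 to 12 and 21 counts (log2 fold change 4.49 ± 1.02 SE, edgeR adjusted p = 0.00792). Without methylated replicate 2 this adenosine had a log2 fold change of 4.07 and missed the threshold (edgeR adjusted p = 0.20), and without unmethylated replicate 2 it was 3.58. The selected AGACA at 95103599 had 0 and 3 against 0 and 3 counts, so that none of the 3 DICER1 RNAs had a call at its position 51.

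In TUG1 a single adenosine was called, the AGACC at position 128 of the RNA selected at 30971641. It went from 15 and 17 counts to 151 and 223, or from 1.42 ± 0.0123 to 14.2 ± 3.74 CPM (SD, n = 2 each), and was the only one of the 10 with at least 10 counts in both unmethylated libraries. The log2 fold change was 3.27 ± 0.36 SE (edgeR adjusted p = 1.82e-06), and the ratio 9.98 had a 95% counting interval of 6.95 to 14.8. This was the best measured response of the 37; of 307 AGACC adenosines tested over all sequences, 24.4% were higher, with a median log2 fold change of 0.64.

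The other TUG1 adenosines were low. The selected GGACT of the same RNA had 2 and 4 against 19 and 7 counts, a ratio of 3.70 (95% counting interval 1.49 to 11). An AGACA at position 78 had 0 and 0 against 7 and 7 counts, at least 1.98-fold higher against a floor of 3 counts per unmethylated library, and with all sites tested it had an edgeR adjusted p of 0.0537. A TGACC at position 58 had 1 and 2 against 2 and 3 counts, and a GAACA at position 12 had none. In the RNA selected at 30971351 the selected AGACT had 3 counts, all in methylated replicate 2. Its second AGACT had 1 and 0 against 0 and 6 counts, its AAACA 0 and 1 against 3 and 0, and its GAACT 3 and 0 against 3 and 3, so that the groups overlapped at all 4 adenosines of this RNA.

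The calls included selected and other adenosines. Of 10 selected adenosines, 2 were tested and 1 was higher; of the other 27, 8 were tested and all 8 were higher, with the filter limiting both counts as above. Without a filter, both methylated libraries lay above both unmethylated ones at 5 of the 10 selected and 17 of the 27 other adenosines. Over all DRACN adenosines of the table, selected and other together, this was so for 35.2%. The share was not computed for each kind. By the edgeR calls, a different measure, 42.2% of the tested selected adenosines and 38.1% of the other tested DRACN adenosines of all sequences were higher. Whether the 3 transcripts differ from the table in this respect was not tested. The 9 called adenosines were 5 GGACT, 1 AGACT, 1 AGACC, 1 TAACC and 1 GAACG, at positions 51 to 128. Of 500 GGACT adenosines tested over all sequences, 58.2% were higher, with a median log2 fold change of 2.00, and of 251 AGACT adenosines 22.7%, with a median of 0.70.

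The summed counts of whole RNAs also changed, and these sums include the called adenosines themselves. Of the 10 sequence totals, 3 were higher and 0 lower by edgeR; among all 3823 tested totals, 10.4% were higher and 6.72% lower. At an unadjusted p under 0.05 there were 0 falls by edgeR, and DESeq2 called 3 higher and 0 lower. The SON RNA selected at 33551606 went from 673 and 764 counts to 2307 and 3038 (log2 fold change 1.65 ± 0.16 SE, edgeR adjusted p = 1.94e-07), and the DICER1 RNA selected at 95103599 from 236 and 181 to 708 and 895 (1.69 ± 0.20 SE, edgeR adjusted p = 2.92e-06). That DICER1 rise was uneven along the RNA. Its last 71 nt went from 201 and 155 counts to 658 and 824. Positions 31 to 60 fell from 10.5% ± 0.0679 to 3.87% ± 1.48 of its counts (SD, n = 2 each). The upstream SON repeat RNA rose by 0.80 ± 0.23 (log2 ± SE; edgeR adjusted p = 0.0161), a call that ended without unmethylated replicate 1 (0.130), without methylated replicate 2 (0.215) and with library totals as the scale (0.0535). Rises at single adenosines also lay in RNAs whose totals were not called: the DICER1 RNAs selected at 95103531 and 95096073, the SON RNA selected at 33543056 and the TUG1 RNA selected at 30971641.

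Set against the total of its own RNA, each of the 9 called adenosines remained called, while those in RNAs whose totals rose had smaller changes. Each total includes the counts of the adenosine set against it. In the SON array the log2 fold changes became 4.41 ± 0.60 at 33551606, 2.60 ± 0.65 at 33551636 and 2.84 ± 0.50 at 33551666 (SE), with edgeR adjusted p-values of 2.11e-05, 0.0264 and 6.41e-04. The DICER1 adenosine at position 119 had 4.05 ± 0.51 SE (edgeR adjusted p = 5.26e-06). The other 5 moved by less, and lay between 3.11 for the AGACC of TUG1 and 4.85 for the GAACG of SON. None was lower; in this fit 34.2% of all tested DRACN adenosines were higher and 0.0234% lower.

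Summed over each transcript, DRACN adenosines took a larger share of counts after methylation. The share rose in SON from 0.761% ± 0.224 to 6.92% ± 0.0426, in DICER1 from 0.321% ± 0.142 to 4.80% ± 0.0529 and in TUG1 from 0.665% ± 0.0697 to 4.87% ± 0.255 (SD, n = 2 each). Over the whole table it went from 1.53% ± 0.0428 to 3.65% ± 0.0570. A few adenosines made up these sums: the AGACC at position 128 held 81.6% and 88.5% of the methylated DRACN counts of TUG1, the 4 called adenosines of SON 87.3% and 80.9%, and the 4 of DICER1 94.1% and 89.7%. The sums also pool RNAs whose weights changed, as the totals of the SON RNA selected at 33551606 and the DICER1 RNA selected at 95103599 rose. The part of these weights in the shares was not tested. The unmethylated shares of the 3 transcripts lay below that of the table and the methylated shares above it. In all 3 the groups did not overlap, and the exact permutation test (two-sided) gave p = 0.333, below which a design of 2 against 2 cannot go. DRACN adenosines made up 2.55%, 2.36% and 3.19% of the positions of SON, DICER1 and TUG1.

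The counts of the 9 called adenosines divided over 27 tag copies, and in 23 of these both methylated libraries lay above both unmethylated ones. Over the copies of all DRACN adenosines called higher in the table this was so for 83.2%, and since the calls were made on the sums of these copies, the count is no separate evidence. In TUG1 the AGACC at position 128 had 5 and 9, 8 and 2, and 2 and 6 unmethylated counts in its copies and 58 and 102, 46 and 65, and 47 and 56 methylated ones, and each copy was called on its own (log2 fold changes 3.24, 3.18 and 3.41; edgeR adjusted p = 1.12e-04, 6.62e-04 and 3.06e-04). The SON values rested mainly on 1 copy, which held 100 of 108 and 132 of 138 methylated counts at 33551606; the other copies had 6 and 6, and 2 and 0 methylated counts and none before. That copy also held most of the counts of the whole RNA, 1962 of 2307 and 2497 of 3038. Copies share the 4 libraries and are not replicates.

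At positions other than DRACN adenosines, 27 of 243 tested positions were higher and 2 lower by edgeR; over all sequences, 2.6% of such positions were higher and 2.06% lower. Of the 27 rises, 21 lay in the SON RNA selected at 33551606, 4 in the DICER1 RNA selected at 95103599 and 2 in the DICER1 RNA selected at 95103531, so that 25 were in RNAs whose totals rose. The smallest p belonged to position 48 of the SON RNA, 3 nt upstream of its selected adenosine, with 3 and 5 against 51 and 70 counts (log2 fold change 3.62 ± 0.51 SE, edgeR adjusted p = 5.22e-05). The nucleotide behind the DICER1 GGACT, position 120, had 4 and 0 against 51 and 49 counts (4.30 ± 0.66 SE, edgeR adjusted p = 1.48e-04; 3.28 without unmethylated replicate 2). Both remained called against the total of their RNA (edgeR adjusted p = 0.0310 and 0.0271), whereas position 100 of that DICER1 RNA, with 42 and 40 against 190 and 206 counts, did not (log2 fold change 2.01 ± 0.31 SE and then 0.33, edgeR adjusted p = 0.710). Relative to these totals, 6 of the 243 positions were higher and 2 lower, compared with 0.801% and 0.415% in the table.

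Both falls lay in DICER1. Position 103 of the RNA selected at 95103531 had 709 and 265 against 204 and 211 counts (log2 fold change −1.52 ± 0.35 SE, edgeR adjusted p = 0.00913). This fall rested on unmethylated replicate 1, without which it was −0.55 (edgeR adjusted p = 0.396), and DESeq2 did not call it (adjusted p = 0.322). Position 117 of the RNA selected at 95096073 had 59 and 62 against 16 and 30 counts (−1.66 ± 0.39 SE, edgeR adjusted p = 0.00973), and missed the threshold without methylated replicate 1 (−1.31, edgeR adjusted p = 0.150).

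Other transcripts of the same pathways gave little to compare. Of 13 genes of the microRNA pathway, 4 had a sequence here (AGO4, DICER1, TARBP2 and TNRC6A), and DICER1 alone had a tested DRACN adenosine, with 4 of 4 higher. These 4 passed the count filter through methylated libraries alone, so that their number is no evidence in itself. Of all tested DRACN adenosines of the table, 39.3% were higher. Of 15 genes of nuclear speckles and splicing, 4 had one (PRPF8, SON, SRRM2 and SRSF2); besides SON, SRRM2, which encodes another speckle scaffold protein, had 2 tested adenosines, of which 0 were higher by edgeR at the adjusted threshold or at an unadjusted p under 0.05, and 0 by DESeq2, which gave 1 of them no adjusted p. Their median log2 fold change was 0.54, beside 1.22 over all tested DRACN adenosines. Of 10 RNAs listed here as long noncoding, TUG1 was the only one with a sequence assigned to 1 gene.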

How the data were processed

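The data were crosslink positions from miCLIP2 on in vitro transcribed RNA, in 2 unmethylated and 2 methylated libraries. The authors deposited raw counts per position, oligonucleotide and library in 1 table, without normalization. Tools listed in the submitters' processing notes were bedtools 2.27.1, STAR 2.7.3a and FastQC 0.11.8. What each did, whether duplicate reads were removed and which genome build was used is not given in the sources used here.

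Counts of oligonucleotides with an identical sequence were summed. Sites reaching 10 counts in 2 or more libraries were fitted in R 4.3.3 with edgeR 4.0.16 (glmQLFTest, TMM scaling, 1 term for group), with Benjamini-Hochberg adjustment over all sites of the table; sequence totals were fitted alike. Standard errors are the log2 fold change over the square root of F. The procedure was tested on simulated data, in which the changed sites had higher mean counts than some of the adenosines called here. CPM used library totals. Ratios have exact conditional 95% intervals and shares Wilson intervals, for counting error only. Pairing was predicted with ViennaRNA 2.7.2, and summaries used scipy 1.17.1, numpy 2.4.6 and pandas 2.3.3 under Python 3.11.15. All tests were two-sided. The labels do not say that replicates were separate reactions, so p-values measure only the spread between these libraries, which may be technical.

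The members, lists and alternatives were chosen with earlier results of these data known. The text names each DRACN adenosine of the sequences and, elsewhere, the called positions with the 3 smallest p in each direction. The alternatives tried were scaling by library totals or on sites outside DRACN adenosines, DESeq2 1.42.0, other filters, sequence totals as the scale, single tag copies, leaving out each library, and the replicate number as a block.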

Additional observations from a re-analysis of the deposited data

How the results depend on the processing

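Of the 9 called DRACN adenosines, all 9 remained called with library totals, scaling outside DRACN, no filter (10 called), sequence totals, without either unmethylated library and with the replicate block; 8 remained without methylated replicate 1, without methylated replicate 2 and with tag copies separate, where 1 was not tested. With tag copies separate, each adenosine was represented by its copy with the smallest p, so that this setting does not show agreement among copies. With at least 50 counts, 5 sites were left to test and all 5 were called. All 5 passed that filter through the methylated libraries alone, so that a low unmethylated count was again built into their choice and their number is no evidence in itself. DESeq2 called 7 and gave the other 2 no adjusted p. It called 3044 sites of the table higher and 1824 lower, and the fit against sequence totals 2575 and 577; leaving out 1 library gave 3224 to 5699 and 1614 to 3437. At other positions of the sequences 12 were higher and 1 lower with DESeq2, 10 higher with at least 50 counts and 6 higher against sequence totals, and leaving out 1 library gave 17 to 29 higher and 1 to 5 lower. Leaving out 1 library gave 0 to 1 lower totals. With DRACH in place of DRACN the rise in the SON share was 5.41 percentage points, against 6.16. Totals that were not called turned sign in DICER1 95103531 (−0.06; −0.39 to 0.29 leaving out 1 library, with 0.20 without methylated replicate 2) and in SON 33553945 (0.17; −0.0089 to 0.38, the lowest without unmethylated replicate 2). The cause was not tested.

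The replicate numbers pair libraries by name only: differences between replicates correlated at −0.0781 between the groups. With the replicate block, 9 DRACN adenosines and 29 other positions were higher, against 27 without it, and 5608 sites of the table were higher.

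Low counts limit the account: 27 of the 37 adenosines were untested, and most folds rest on fewer than 10 unmethylated counts.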

Other observations

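Predicted pairing of the adenosines ranged widely among those that rose. Base pairing was computed over all structures of the 141 nt alone, leaving out tag and linker. The 9 called adenosines were paired with a probability of 0.641% to 88.9%, and all 37 with 0.212% to 99.9% (median 41.6%). In the SON array, the 2 identical units had 0.535% at position 111 of the upstream RNA and 81.1% at position 21 of the downstream one. The repeats at positions 21, 51, 81 and 111 had 98.7%, 96.2%, 2.75% and 0.535% in the upstream RNA. In the downstream RNA they had 81.1%, 27.1%, 79.2% and 88.9%, in the order of the shares given above. The DICER1 adenosine present in 2 RNAs was predicted to be paired at 66.4% at position 119 and 68% at position 51. The part of pairing in the counts was not tested.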
